A study of Mus musculus with 15 samples.

Results

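The genes described here encode the potassium channels and the hyperpolarization-activated (HCN) channels of the mouse heart, followed over 4, 8 and 11 days of isoproterenol and set against saline. They were chosen by symbol alone, as every gene named Kcn plus further letters and a number, or Hcn plus a number, whose expected counts summed to at least 10 over the 15 libraries. Of 96 genes with such a symbol 82 reached this minimum, among 26862 tested genes in all. Just inside it were Kcne2 with 11 counts and Kcnj16 with 11.9, and just outside was Kcnk18 with 8. The 82 genes divide into 28 pore-forming subunits of voltage-gated channels, 14 inward rectifiers, 11 accessory subunits, 11 channels or subunits of channels opened by calcium or sodium, 8 two-pore-domain channels, 6 modulatory voltage-gated subunits and 4 HCN channels.

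The ventricular RNA came from male C57BL6 mice 12 weeks of age that received isoproterenol, an agonist of β-adrenergic receptors, as a daily dose of 50 mg/kg under the skin. Libraries of total RNA were made from 4 hearts after 4 days, 3 hearts after 8 days, 4 hearts after 11 days and 4 hearts of mice given saline, and hearts are identified by group and by the letter of the replicate. The labels give no number of days for the saline hearts. The same 4 saline hearts were the reference at each time, so the comparisons against saline are not independent of each other. One further replicate of the 8-day group was left out by the authors for its quality. The labels do not state whether any heart was pooled, and the p-values measure the spread between these libraries.

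The libraries held 25404162 to 117777005 counts, of which the 82 genes took 0.0363 to 0.0591%. The lowest share was that of 8-day A, which also had the lowest scaling factor (0.704, against 0.820 to 1.19 in the others). All 16 markers of cardiomyocytes were measured, and their summed level was 75038 to 85019 CPM (counts per 1000000 counts of a library, scaled by the TMM method) in 4-day hearts, 78614 to 83918 CPM in 8-day hearts and 81621 to 89453 CPM in 11-day hearts, against 79285 to 88358 CPM in saline hearts. Of these markers 2 were higher and 6 lower than in saline hearts at 4 days (Myl2, Myl3, Tnni3, Fabp3, Cox6a2 and Atp2a2 lower), and Fabp3, Atp2a2 and Myl3 were lower at 8 and at 11 days. The part of cardiomyocyte RNA in the channel results was not tested. After 4 days 9 of 10 fibroblast markers were higher and 1, Gsn, was lower, at summed levels of 1647 to 5151 CPM against 785 to 969 CPM in saline hearts. Of 11 macrophage and leukocyte markers 9 were higher at that time, at 234 to 389 CPM against 125 to 199 CPM in saline hearts.

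Potassium channels carry the outward currents that end each action potential of a ventricular myocyte and hold its resting potential. In mouse ventricle a rapid transient outward current through Kcnd2 and Kcnd3 with the auxiliary subunit Kcnip2 and sustained currents through Kcna5 and other delayed rectifiers do most of this work, and inward rectifiers of the Kcnj family set the rest potential or couple it to metabolism. HCN channels open on hyperpolarization, are gated by cyclic AMP and are best known from the pacemaker cells of the sinoatrial node. Loss of outward current and a longer action potential are well-known features of hypertrophied and failing hearts.

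Levels between genes were compared per length, as FPKM, in the 4 saline hearts. Among the 82 genes 12 had a median of at least 5 FPKM, 21 of at least 1 FPKM, and 31 stayed below 0.1 FPKM. Kcnip2, the calcium-binding partner of the Kcnd channels, was the highest at a median of 27.2 FPKM (25.9 to 31.1), above the range of the next gene. It was followed by Kcnk3, a two-pore channel of background current, at 18.4 FPKM (13.0 to 19.6), and by Kcnj11, the pore of the ATP-sensitive channel, at 17.3 FPKM (12.8 to 18.4). Kcng2, a modulatory subunit that forms no channel of its own, and Kcnj3, a pore subunit of the acetylcholine-activated channel, had medians of 11.2 and 10.7 FPKM. The ranges of Kcnk3 and Kcnj11 overlapped, as did those of nearly every later pair of neighbors in this order. Summed by class, inward rectifiers made up 31.1 to 35.4% of the FPKM of all 82 genes in saline hearts, pore-forming voltage-gated subunits 19.8 to 21.1%, accessory subunits 17.3 to 19.9%, and HCN channels 1.62 to 2.47%.

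**Figure D1:**
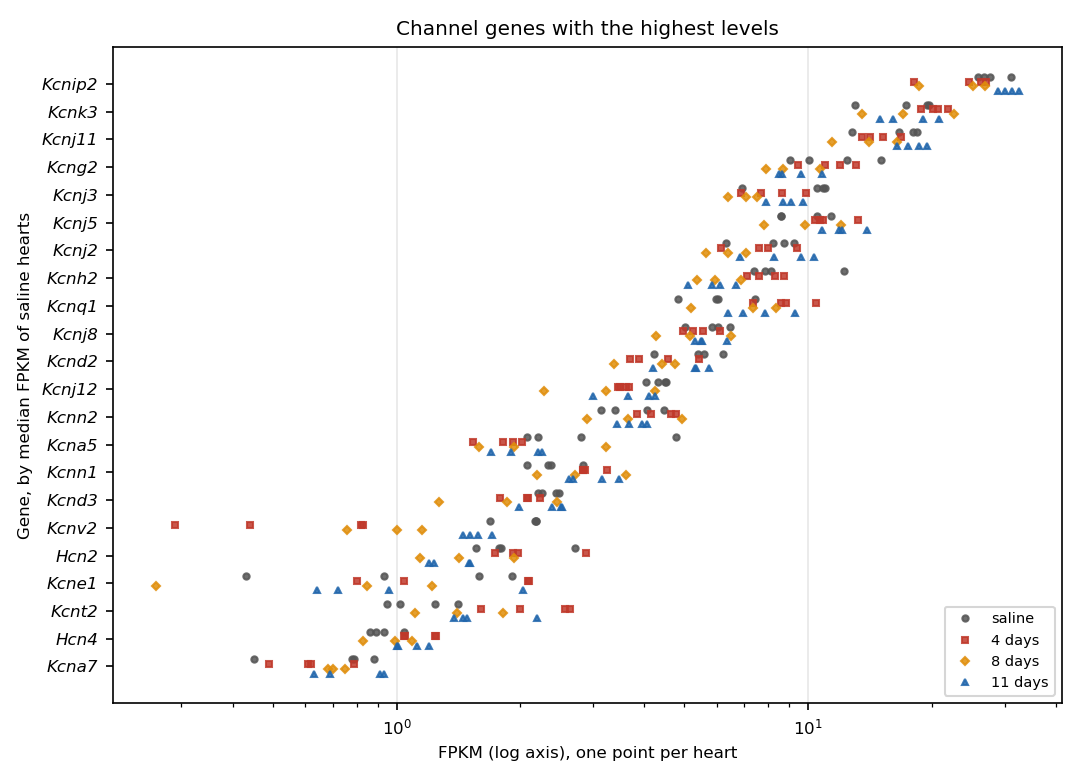
FPKM on a log axis of 22 of the 24 genes with the highest median in saline hearts, with 1 point for each heart and a color and symbol for each group. Kcnip2 lies highest at a median of 27.2 FPKM in saline hearts, and Kcnv2 reaches its lowest points in the 4-day hearts.

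Across all groups 16 of the 82 genes differed between any of them by edgeR's test, which tests every gene on its counts and was adjusted here over all 26862 genes with a threshold of 0.05 (13.0% of all genes passed). At an unadjusted p below 0.05 there were 34, and 26.2% of all genes. After 4 days 5 channel genes were higher and 8 lower than in saline hearts, together 15.9% of the 82, while 9.46% of all genes passed. In bulk RNA such as this, fewer cells of a type and less RNA per cell cannot be told apart. Among all genes 3.4% were called lower and 6.05% higher at this time. After 8 days 1 was higher and 2 were lower (2.27% of all genes passed, 1.07% higher and 1.2% lower), and after 11 days 1 was higher and 5 were lower (3.75% of all genes passed, 1.8% higher and 1.95% lower). Counted by hearts alone, 4 channel genes lay wholly above and 8 wholly below saline at 4 days, against 8.0% and 5.65% of all genes. These counts were 7 and 5 at 8 days (6.88% and 5.97% of all genes) and 2 and 6 at 11 days (5.85% and 4.77% of all genes). The median log2 fold change of the 82 genes was -0.04 at 4 days, -0.03 at 8 days and -0.10 at 11 days, against 0.01, -0.01 and -0.01 over all genes. In total 17 channel genes passed at 1 or more times, and 2 of them, Kcnv2 included, passed at all 3. The count at 4 days was 7 without saline A or 4-day A, 8 without saline C, 4-day C or 4-day D, 17 without 4-day B, and 23 when saline B was removed. The number of all genes called moved in the same direction in these fits, to 1387 to 1855 in the first 5, 2867 without 4-day B and 2973 without saline B, against 2540 with every library. The count at 8 days was 6 without saline B and stayed at 3 without 8-day A, with 912 and 375 of all genes called, against 610 with every library. The count at 11 days was 3, 2, 2, 1, 2 and 3 without saline A, saline C, 11-day A, 11-day B, 11-day C and 11-day D, and those fits called 527 to 721 of all genes, against 1006 with every library. With libraries scaled by their size alone, the median of all genes at 4 days moved to 0.21 and the split of calls became 9 higher and 1 lower, the lower gene being Kcnv2. The part of the mitochondrial counts in this change was not tested. With the size factors of DESeq2 in place of TMM the same 13 genes were called, 5 higher and 8 lower.

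**Figure D2:**
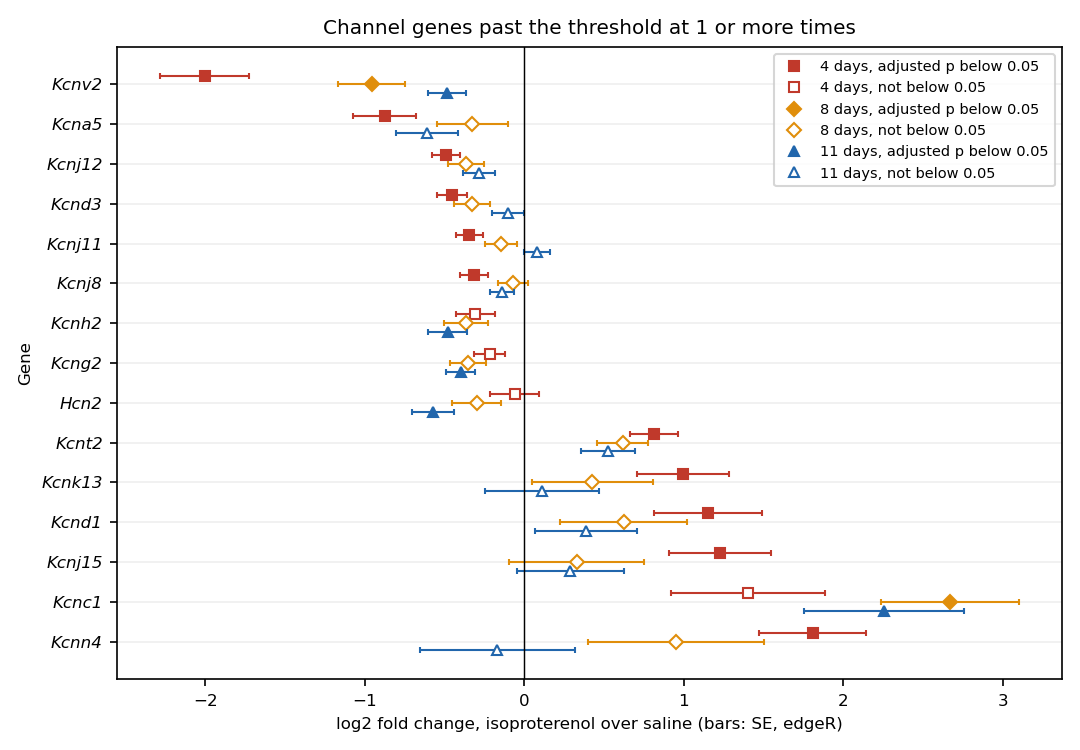
Log2 fold change of isoproterenol over saline with its standard error, from edgeR, for 15 of the 17 genes past the threshold at 1 or more times. Filled symbols mark an adjusted p below 0.05, with a color and symbol for each time. Kcnv2 moves from -2.0 at 4 days to -0.48 at 11 days, and Kcnt2 lies above 0 at all 3 times, filled at 4 days only.

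Kcnv2 encodes a modulatory subunit that forms no channel alone and alters the gating of the subunits it joins, and it had the largest fall of the 82 genes at 4 days among those past the threshold. It had 1.25, 4.03, 3.43 and 2.0 CPM in 4-day hearts A to D, against 10.8, 8.03, 10.6 and 13.2 CPM in saline hearts A to D. In 8-day hearts it had 6.98, 6.09 and 3.41 CPM and in 11-day hearts 7.48, 7.87, 7.12 and 8.03 CPM. Every treated heart lay below every saline heart at each time, by very little between the highest 11-day heart and saline B. It was at -2.0 on the log2 scale at 4 days (edgeR, SE 0.279, adjusted p = 0.000803), and passed without any 1 library. At 8 days it stood at -0.96 (edgeR, adjusted p = 0.0288), a call lost without saline A, saline D, 8-day B or 8-day C at 0.0658, 0.0588, 0.0604 and 0.0995, and at 0.0501 with filterByExpr, 0.0514 with effective lengths, 0.135 with robust dispersions and 0.0732 with all groups in one fit. At 11 days it was -0.48 (edgeR, adjusted p = 0.0384), and leaving out any library but saline B ended the call, at up to 0.113, as did effective lengths at 0.0662, scaling by library size at 0.0913 and all groups in one fit at 0.342. Between 11 and 4 days the gene was higher by 1.53 (SE 0.255, adjusted p = 0.00224 from edgeR), so its level at 11 days lay above that at 4 days and below saline.

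Kcna5, the pore of an ultrarapid delayed rectifier, was lower at 4 days. It had 4.23, 5.08, 4.59 and 3.76 CPM in 4-day hearts A to D, against 5.62, 12.4, 7.46 and 7.26 CPM in saline hearts A to D, and the groups did not overlap although saline B stood high. The log2 fold change was -0.88 (SE 0.197, adjusted p = 0.0126 from edgeR), past the threshold without any 1 library and at 0.0505 with scaling by library size. At 8 and 11 days its log2 fold changes were -0.33 and -0.61 and the adjusted p was 0.598 and 0.111. Kcna4, the pore of a slowly recovering transient outward current, had log2 fold changes of -0.68, -0.42 and -0.58 at 4, 8 and 11 days, none past the threshold.

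Kcng2, the modulatory subunit with the highest level, was lower at 11 days. It had 18.8, 18.9, 18.3 and 21.4 CPM in 11-day hearts A to D, against 25.8, 21.3, 28.0 and 26.5 CPM in saline hearts A to D, with 11-day D just above saline B. The log2 fold change was -0.40 (SE 0.0909, adjusted p = 0.0267 from edgeR), and 6 of 8 left-out libraries ended the call, at up to 0.0948, with saline B and 11-day D the exceptions. Effective lengths gave 0.139 and scaling by library size 0.170. At 4 and 8 days it was -0.22 and -0.35, not past the threshold. The gene shares exon sequence with D330025C20Rik on the opposite strand, with 2284 counts against 19210 for Kcng2.

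Of the subunits of the transient outward current Kcnd3 was lower at 4 days. It had 9.22, 9.71, 9.65 and 9.20 CPM in 4-day hearts A to D, against 13.0, 10.9, 13.6 and 14.5 CPM in saline hearts A to D. The 4-day hearts were close together and all below the saline hearts. This was a log2 fold change of -0.45 (SE 0.0921, adjusted p = 0.00708 from edgeR), past the threshold without any 1 library and at 0.206 with scaling by library size. Its 11-day hearts had 10.4, 12.2, 13.3 and 12.7 CPM, higher than the 4-day hearts by 0.36 (SE 0.0811, adjusted p = 0.0131 from edgeR, and 0.170 with scaling by library size), and its log2 fold change against saline was then -0.10 (adjusted p = 0.691).

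Kcnd2, the other pore subunit of this current, had 16.8, 18.0, 19.2 and 24.7 CPM in 4-day hearts A to D, against 26.9, 20.3, 27.7 and 37.8 CPM in saline hearts A to D. The groups overlapped and the log2 fold change was -0.51 (SE 0.162, adjusted p = 0.0672 from edgeR). Kcnip2 had 30.4, 47.3, 44.9 and 42.9 CPM in 4-day hearts A to D, against 50.8, 47.7, 57.0 and 60.4 CPM in saline hearts A to D, with no overlap and with 4-day A far below the rest. Its log2 fold change was -0.38 (SE 0.127, adjusted p = 0.0824 from edgeR). In 11-day hearts it had 58.2, 59.7, 53.9 and 57.1 CPM, all above the 4-day hearts, with a log2 fold change of 0.46 between the times (edgeR, SE 0.111, adjusted p = 0.0178). That call was lost without 11-day B at 0.0571 and with scaling by library size at 0.0614. The FPKM of Kcnip2 over the sum of Kcnd2 and Kcnd3 averaged 3.77 ± 0.80 in 4-day hearts, 3.91 ± 0.10 in 8-day hearts and 4.12 ± 0.49 in 11-day hearts, against 3.66 ± 0.53 in saline hearts (SD, n = 4, 3, 4 and 4 hearts), and these ranges overlapped.

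**Figure D3:**
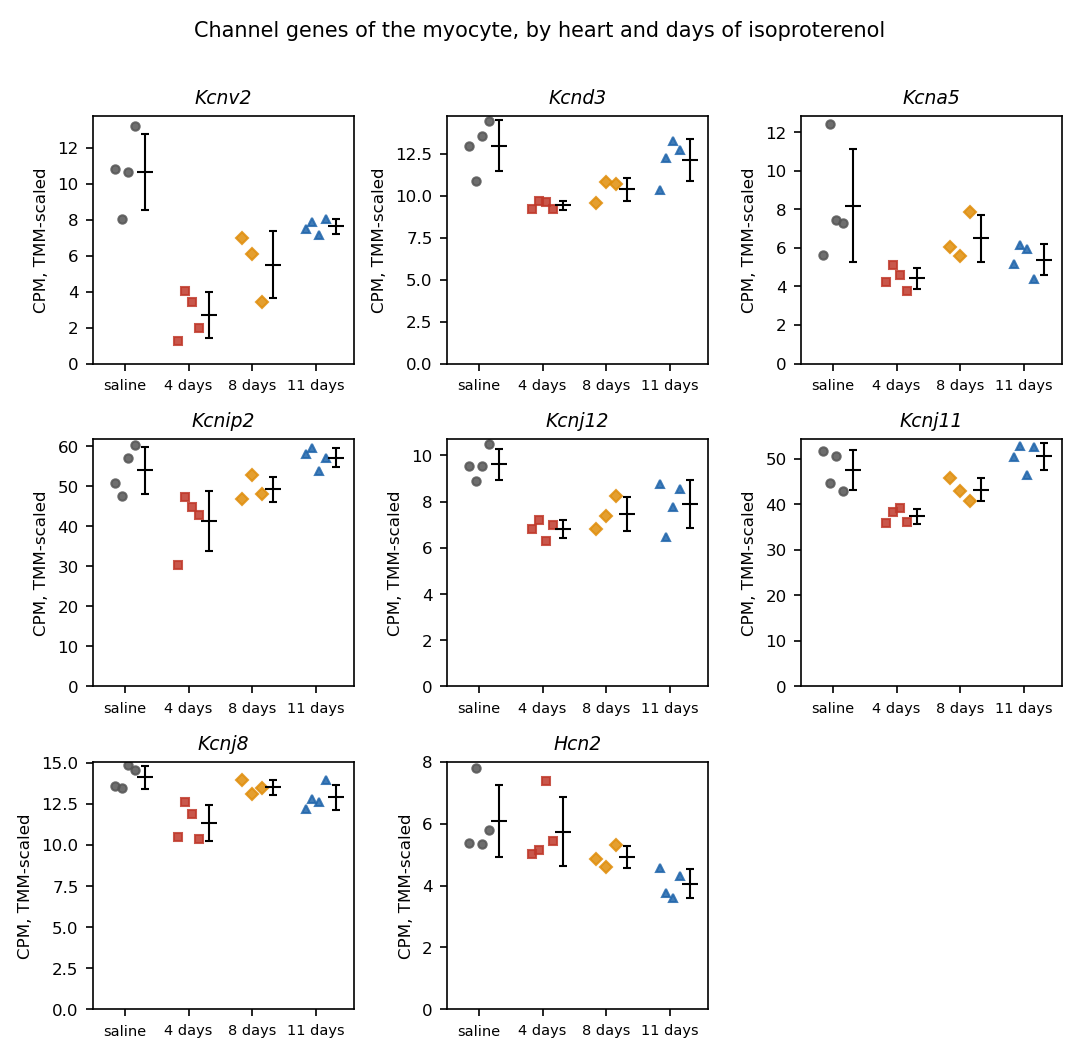
CPM scaled by TMM for 8 channel genes, with 1 point for each heart, the mean and its SD as a bar beside them, and each axis starting at 0. All treated hearts lie below the saline hearts for Kcnv2, while Kcnd3, Kcnip2 and Kcnj11 are lowest at 4 days and higher at 11 days. Hcn2 is lowest at 11 days.

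The promoter windows of 4 genes are shown because Kcnd3 and Kcna5 fell together at 4 days while Kcnt2 and Kcnn4, described below, rose, each without any 1 library ending its call. They are examples, and Kcnj12, which fell at 4 days in the same way, is not shown. They are RefSeq sequences on GRCm38.p6 and run from 250 bases before to 50 after the annotated start. The leading transcript of the deposited table starts 440 bases from that start for Kcnd3, 143 bases for Kcna5, 477 bases for Kcnt2 and 0 bases for Kcnn4. Capitals mark matches, on either strand, to the cAMP response element TGACGTCA, its partial site TGACG, which the full element holds as well, the clock E-box CACGTG, the D-box TTATGTAA, the TATA box TATAAA or the GC box GGGCGG.
Kcnd3, chr3:105451640-105451939, plus strand: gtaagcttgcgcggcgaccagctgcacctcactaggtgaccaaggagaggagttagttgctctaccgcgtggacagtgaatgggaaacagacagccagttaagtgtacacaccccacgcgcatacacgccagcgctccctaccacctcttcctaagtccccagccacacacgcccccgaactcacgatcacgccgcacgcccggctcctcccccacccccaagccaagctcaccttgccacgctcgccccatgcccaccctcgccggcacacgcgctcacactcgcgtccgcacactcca
Kcna5, chr6:126535506-126535805, minus strand: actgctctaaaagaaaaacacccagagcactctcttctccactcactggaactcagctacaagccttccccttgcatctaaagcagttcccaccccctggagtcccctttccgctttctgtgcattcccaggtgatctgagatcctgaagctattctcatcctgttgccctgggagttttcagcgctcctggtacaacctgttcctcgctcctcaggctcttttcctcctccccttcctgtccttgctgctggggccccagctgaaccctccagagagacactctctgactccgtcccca
Kcnt2, chr1:140245468-140245767, plus strand: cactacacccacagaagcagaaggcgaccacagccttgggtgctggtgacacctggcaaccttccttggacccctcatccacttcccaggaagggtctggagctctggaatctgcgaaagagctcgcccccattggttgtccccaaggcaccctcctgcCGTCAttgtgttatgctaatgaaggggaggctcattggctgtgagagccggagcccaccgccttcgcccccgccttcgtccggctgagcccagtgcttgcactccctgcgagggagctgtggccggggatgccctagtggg
Kcnn4, chr7:24370013-24370312, plus strand: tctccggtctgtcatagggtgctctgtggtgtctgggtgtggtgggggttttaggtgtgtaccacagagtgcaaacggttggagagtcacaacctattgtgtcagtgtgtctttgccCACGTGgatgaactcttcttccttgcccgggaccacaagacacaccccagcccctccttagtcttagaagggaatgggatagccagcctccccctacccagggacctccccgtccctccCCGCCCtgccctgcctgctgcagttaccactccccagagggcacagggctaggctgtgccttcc

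In these windows Kcnt2 held the partial site as CGTCA, Kcnn4 held an E-box and a GC box as CCGCCC, and Kcnd3 and Kcna5 held none of the 6 motifs. Of the other genes called at 4 days, Kcnj8, which was lower, also held the partial site. Kcnj15, which was higher, held the TATA box. Windows were given for 58 of the 82 genes, 82 windows in all. The partial site stood in 17.1% of them and in 20.8% of all 32851 windows of the table, the E-box in 8.54% and 7.15%, and the GC box in 50.0% and 35.7%. The full cAMP response element and the D-box stood in none of the channel windows, against 1.79% and 0.938% of all windows, and the TATA box in 6.10% against 13.6%. These matches describe letters in a window of 300 bases.

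The rapid delayed rectifier gene Kcnh2, whose human counterpart is the site of many long QT mutations, was lower at 11 days. It had 19.6, 19.1, 22.3 and 22.8 CPM in 11-day hearts A to D, against 25.7, 23.0, 35.3 and 32.4 CPM in saline hearts A to D, and the groups stood just apart at saline B. The log2 fold change was -0.48 (SE 0.121, adjusted p = 0.0435 from edgeR), and leaving out any library but saline B ended the call, at up to 0.143, as did robust dispersions at 0.0502 and scaling by library size at 0.128. At 4 and 8 days it was -0.31 and -0.37, not past the threshold. The transcript Kcnh2-201 took 54.5 to 84.6% of the gene in 11-day hearts and 39.2 to 65.5% in saline hearts, ranges that overlap.

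Kcnq1, the pore of the slow delayed rectifier, had 23.3, 16.7, 18.8 and 19.6 CPM in 4-day hearts A to D, against 13.1, 11.3, 17.3 and 15.9 CPM in saline hearts A to D. The groups overlapped and the log2 fold change was 0.45 (SE 0.133, adjusted p = 0.0515 from edgeR). Reads of this gene cannot be told apart from those of its antisense transcript Kcnq1ot1 where their exons overlap and strand was not used, and Kcnq1ot1 had 114032 counts in all against 15247 for Kcnq1. Kcnq1ot1 itself had a log2 fold change of -0.17 at 4 days (adjusted p = 0.306). Kcne1, the accessory subunit that slows Kcnq1, had log2 fold changes of 0.29, -0.35 and -0.09 at 4, 8 and 11 days, none past the threshold. None of the 11 accessory subunits passed against saline at any time. At an unadjusted p below 0.05 there were 3, 0 and 0 at 4, 8 and 11 days, against 22.2, 13.0 and 17.2% of all genes.

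Of 14 inward rectifiers 3 fell and 1, Kcnj15, rose at 4 days, when 3.4% of all genes were called lower and 6.05% higher. At 8 and at 11 days 0 were called by edgeR, and 3 at each time had an unadjusted p below 0.05, as did 13.0% and 17.2% of all genes. Kcnj12, a subunit of the current that sets the resting potential, had 6.80, 7.19, 6.31 and 7.0 CPM in 4-day hearts A to D, against 9.54, 8.88, 9.54 and 10.5 CPM in saline hearts A to D. All 4-day hearts lay below all saline hearts. The log2 fold change was -0.49 (SE 0.0882, adjusted p = 0.00337 from edgeR), past the threshold without any 1 library and at 0.132 with scaling by library size. At 8 and 11 days it was -0.37 and -0.29 (adjusted p = 0.126 and 0.151), still with no overlap between the groups. Kcnj2, the main subunit of the same current, had log2 fold changes of -0.28, -0.27 and 0.01 at 4, 8 and 11 days, none past the threshold.

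The ATP-sensitive channel is built from a Kcnj pore and a sulfonylurea receptor and couples the membrane potential to the energy state of the cell. Its pore gene Kcnj11 had 36.0, 38.2, 39.1 and 36.0 CPM in 4-day hearts A to D, against 51.8, 44.7, 50.6 and 42.8 CPM in saline hearts A to D. The 4-day hearts were all below the saline hearts, with a log2 fold change of -0.34 (edgeR, SE 0.0847, adjusted p = 0.0206), and the call was lost without saline A, saline C, 4-day A or 4-day D at 0.0750, 0.0595, 0.0731 and 0.0648 and with scaling by library size at 0.537. In 11-day hearts it had 50.3, 52.8, 46.4 and 52.6 CPM, all above the 4-day hearts. That difference was 0.43 (SE 0.0655, adjusted p = 0.00137 from edgeR), and it passed without any 1 library and under each other setting tried.

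Kcnj8, the pore of the vascular form of this channel, had 10.5, 12.6, 11.9 and 10.3 CPM in 4-day hearts A to D, against 13.6, 13.5, 14.8 and 14.6 CPM in saline hearts A to D. Its log2 fold change was -0.31 (SE 0.0857, adjusted p = 0.0343 from edgeR) with no overlap, and 6 of 8 left-out libraries ended the call, at up to 0.125, all but saline B and 4-day B. Effective lengths gave 0.0875 and scaling by library size 0.627. None of 10 endothelial markers passed at 4 days by edgeR, and they summed to 505 to 564 CPM in 4-day hearts against 566 to 659 CPM in saline hearts. Of 9 markers of smooth muscle and pericytes 1 was higher, and they summed to 515 to 562 CPM in 4-day hearts against 467 to 530 CPM in saline hearts. The part of these cells in the level of Kcnj8 was not tested.

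The sulfonylurea receptors were in the list of 21 partners and regulators, of which 19 were measured. Abcc9, the receptor of ventricular and vascular channels, had log2 fold changes of -0.44 and -0.36 at 4 and 8 days (edgeR, SE 0.119 and 0.0875, adjusted p = 0.0326 and 0.0456), and it was at -0.20 at 11 days (adjusted p = 0.172). It had 176, 261, 226 and 175 CPM in 4-day hearts A to D, against 289, 282, 281 and 289 CPM in saline hearts A to D, with no overlap. Abcc8, the other receptor, fell by 0.33 at 4 days (adjusted p = 0.0454 from edgeR). Klf15, a transcription factor that in mice drives Kcnip2, fell by 0.58 at 4 days (adjusted p = 0.0467 from edgeR), and Irx5, a repressor of Kcnd2 in the mouse ventricle, rose by 0.69 (adjusted p = 0.0148 from edgeR). Kcnip2 and Kcnd2 themselves were not past the threshold at 4 days, and the part of Klf15 and Irx5 in their levels was not tested. The median log2 fold change of the 19 was -0.14, -0.09 and -0.01 at 4, 8 and 11 days.

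Kcnj3 and Kcnj5 form the acetylcholine-activated channel, known mainly from atria and the sinoatrial node. Kcnj3 had 29.2, 37.3, 23.3 and 38.1 CPM in 4-day hearts A to D, against 44.8, 31.4, 49.0 and 55.4 CPM in saline hearts A to D, and its log2 fold change was -0.50 (SE 0.174, adjusted p = 0.0964 from edgeR). Kcnj5 had log2 fold changes of 0.02, 0.10 and 0.27 at 4, 8 and 11 days, none past the threshold. The 5 atrial markers, Nppa included, summed to 86.6 to 350 CPM in 4-day hearts and 6.21 to 36.6 CPM in saline hearts, of which only Nppa passed. The median log2 fold change of these 5 markers at 4 days was 0.15.

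Two-pore channels give a background current. Kcnk3, the highest of them, had log2 fold changes of -0.08, -0.01 and -0.07 at 4, 8 and 11 days with a standard error of at most 0.112, and its sign turned with scaling and with left-out libraries. Its exons overlap Gm9899 on the opposite strand, with 8245 counts against 50953 for Kcnk3. Kcnk2, a channel opened by stretch, stood at 0.11 at 4 days and -0.74 at 11 days against saline, neither past the threshold. Between the times it had 0.581, 0.909, 0.879 and 0.458 CPM in 11-day hearts A to D, against 1.16, 1.21, 1.26 and 1.28 CPM in 4-day hearts A to D, with no overlap. That difference was -0.84 (SE 0.213, adjusted p = 0.0223 from edgeR), lost without 4-day C, 11-day A or 11-day D at 0.0584, 0.0693 and 0.0767 and with effective lengths as offsets at 0.202.

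Of the 4 HCN genes Hcn2, the main isoform of ventricular tissue, was lower at 11 days. It had 4.57, 3.74, 3.6 and 4.32 CPM in 11-day hearts A to D, against 5.36, 7.79, 5.36 and 5.78 CPM in saline hearts A to D, and the groups did not overlap. The log2 fold change was -0.57 (SE 0.133, adjusted p = 0.0293 from edgeR), lost without 11-day B, 11-day C or 11-day D at 0.0906, 0.0851 and 0.0559 and with scaling by library size at 0.118. Against the 4-day hearts, which had 5.03, 5.14, 7.38 and 5.43 CPM, it was lower by 0.51 (log2 fold change -0.51, SE 0.131, adjusted p = 0.0241 from edgeR), lost without 4-day C or the same 3 libraries at up to 0.0805. Hcn4, the main isoform of the sinoatrial node, had log2 fold changes of 0.09, 0.15 and 0.14 at 4, 8 and 11 days, none past the threshold. Hcn2 made up 51.4 ± 6.0% of the summed HCN FPKM in 11-day hearts and 62.5 ± 4.4% in saline hearts, and Hcn4 made up 40.9 ± 2.4% and 30.7 ± 5.5% (SD, n = 4 hearts each). The 4 markers of node and conduction system that were measured summed to 5.56 to 9.88 CPM in 11-day hearts and 7.71 to 10.6 CPM in saline hearts, and none passed by edgeR.

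The 6 genes that rose at any time were mostly at low levels. Kcnt2, a channel opened by sodium, was the exception, with 8.76, 6.27, 8.29 and 6.71 CPM in 4-day hearts A to D, against 3.71, 5.50, 3.67 and 4.64 CPM in saline hearts A to D. All 4-day hearts lay above all saline hearts. This was a log2 fold change of 0.81 (SE 0.150, adjusted p = 0.00411 from edgeR), past the threshold without any 1 library and under each other setting tried. At 8 and 11 days it was 0.62 and 0.52 (adjusted p = 0.0626 and 0.116).

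Kcnc1, the pore of a fast delayed rectifier of fast-spiking neurons, was higher at 8 and 11 days. It had 1.43, 1.48 and 1.40 CPM in 8-day hearts A to C, or 47, 35 and 44.3 counts, against 0.252, 0.412, 0.194 and 0 CPM in saline hearts A to D, or 14, 14, 23 and 0 counts. In 11-day hearts it had 1.95, 1.05, 0.933 and 0.468 CPM, and neither time overlapped with saline. Its log2 fold change was 2.67 at 8 days (edgeR, SE 0.433, adjusted p = 0.00514), past the threshold without any 1 library, and 2.25 at 11 days (edgeR, SE 0.502, adjusted p = 0.0240). The call at 11 days was lost without saline A, saline C, 11-day A or 11-day B at 0.0556, 0.0861, 0.0797 and 0.0553 and with robust dispersions at 0.0918. At 4 days it was 1.40 (adjusted p = 0.0936 from edgeR). Of 9 measured markers of nerve and glia none passed at 8 or 11 days by edgeR, and they summed to 4.18 to 6.05 CPM in 8-day hearts and 5.37 to 6.87 CPM in 11-day hearts, against 4.00 to 7.22 CPM in saline hearts.

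Kcnn4, the calcium-activated channel of intermediate conductance known from blood cells and fibroblasts, had 34, 12, 47 and 9 counts in 4-day hearts A to D, against 5, 3, 11 and 3 counts in saline hearts A to D. Scaled, these were 0.294 to 0.437 CPM in 4-day hearts, above the 0.0882 to 0.127 CPM of saline hearts. Its log2 fold change was 1.81 (SE 0.335, adjusted p = 0.00420 from edgeR), past the threshold without any 1 library. In 11-day hearts it had 4, 1, 6 and 11 counts, and it was lower there than in 4-day hearts (log2 fold change -1.95, SE 0.350, adjusted p = 0.00338 from edgeR), again without any 1 library ending the call.

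Kcnk13, a two-pore channel known from microglia, Kcnj15, an inward rectifier known from kidney, and Kcnd1, a relative of Kcnd2 and Kcnd3, had log2 fold changes of 1.0, 1.23 and 1.15 at 4 days (adjusted p = 0.0451, 0.0277 and 0.04996 from edgeR). They stayed at or below 1.21 CPM in every heart, their groups overlapped, and each call was lost without 6, 6 and 7 of the 8 libraries, at up to 0.150, 0.0997 and 0.202. For Kcnk13 and Kcnj15 the exceptions were saline B and 4-day B, and for Kcnd1 it was 4-day B. For Kcnd1 effective lengths gave 0.0723 and DESeq2 0.0563. These genes and Kcnn4 were higher at the time at which 9 of 10 fibroblast markers and 9 of 11 macrophage and leukocyte markers were higher. The other fibroblast marker, Gsn, was lower. All 5 markers of proliferating cells were also higher (24.8 to 79.4 CPM in 4-day hearts against 6.33 to 13.4 CPM in saline hearts). The part of these cells in the channel results was not tested.

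**Figure D4:**
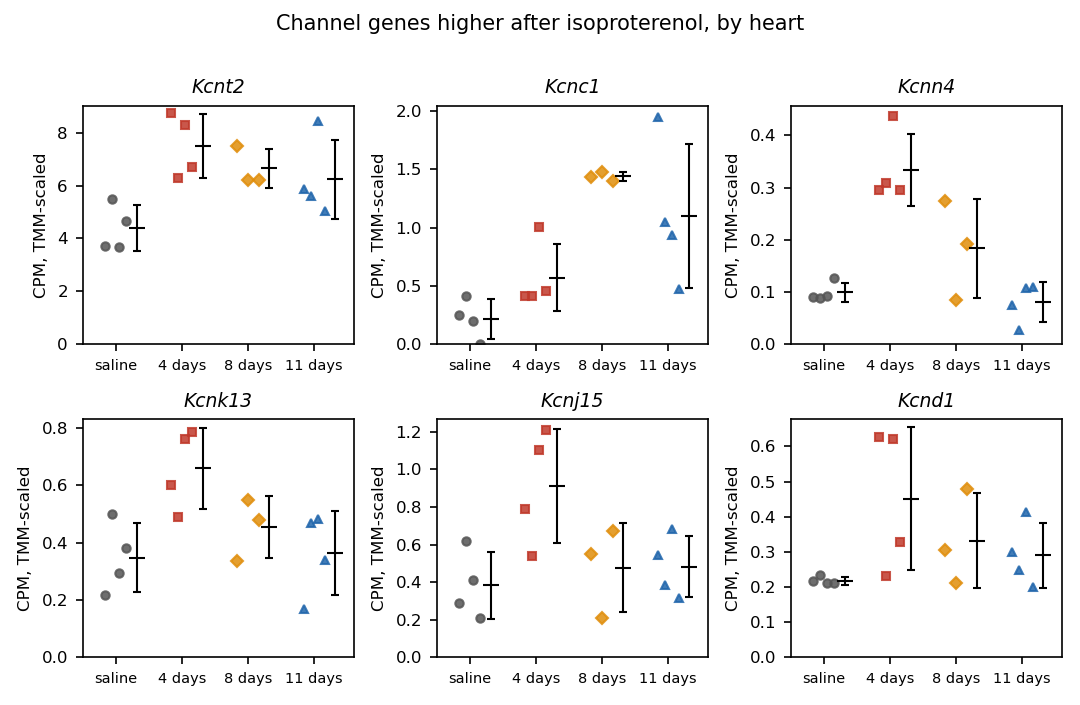
CPM scaled by TMM for the 6 channel genes higher than saline at 1 or more times, with 1 point for each heart, the mean and its SD as a bar beside them, and each axis starting at 0. Kcnt2 stands at 6.27 to 8.76 CPM at 4 days, Kcnc1 is highest at 8 and 11 days, and Kcnn4 at 4 days.

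Set directly against each other, 11-day and 4-day hearts differed in 10 of the 82 genes, 5 higher and 5 lower at 11 days, or 12.2%, while 10.3% of all genes passed, 3.75% higher and 6.55% lower. The higher ones were Kcnv2, Kcnd3, Kcnip2, Kcnj11 and Kcna1, a delayed rectifier of neurons. Kcna1 had 0.881, 1.05, 1.18 and 0.458 CPM in 11-day hearts A to D, against 0.400, 0.385, 0.409 and 0.294 CPM in 4-day hearts A to D, with no overlap and a log2 fold change of 1.17 (adjusted p = 0.0177 from edgeR), lost without 11-day B or 11-day C at 0.0523 and 0.0533 and with all groups in one fit at 0.0524. The lower ones were Hcn2, Kcnk2, Kcnn4, the strongly rectifying Kcnj14, and Kcnab2, a β subunit of Kcna channels.

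Kcnab2 had 0.431, 0.551, 0.502 and 0.956 CPM in 11-day hearts A to D, against 1.91, 1.0, 1.5 and 1.41 CPM in 4-day hearts A to D. The groups stood just apart, with a log2 fold change of -1.23 (SE 0.254, adjusted p = 0.00764 from edgeR) that passed without any 1 library. Kcnj14 had a log2 fold change of -1.11 (adjusted p = 0.0247 from edgeR), lost without 6 of 8 libraries at up to 0.0885, all but 4-day B and 11-day A. With libraries scaled by size alone the median of all genes moved to -0.15 and the split became 3 higher and 8 lower. Between 8 and 4 days edgeR called 0 of the 82 genes (0.249% of all genes, 0.0596% higher and 0.19% lower), with 14 at an unadjusted p below 0.05 (11.5% of all genes) and 2 called by DESeq2, which called 518 of all genes. Between 11 and 8 days it called 0 (0.138% of all genes, 0.0596% higher and 0.0782% lower), with 11 at an unadjusted p below 0.05 (11.2% of all genes) and 0 called by DESeq2, which called 303 of all genes.

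Several cardiac potassium channel genes follow the time of day in mice through the clock and its output factors, and the time of collection is not given in the sources used here. Of 14 clock genes 1 was higher and 8 were lower than in saline hearts at 4 days, 1 and 4 at 8 days, and 1 and 10 at 11 days. Arntl, the core activator, rose by 1.07, 1.46 and 2.17 on the log2 scale at 4, 8 and 11 days (edgeR, adjusted p = 0.00424, 0.00531 and 2.9e-05). Dbp, a D-box output factor, fell by 0.48, 0.51 and 1.26 (edgeR, adjusted p = 0.0134, 0.0332 and 2.1e-05). Ciart, a repressor of the loop, fell by 1.36, 1.48 and 2.11, to 1.24 to 1.74 CPM in 11-day hearts against 5.15 to 7.51 CPM in saline hearts. In 11-day against 4-day hearts the log2 fold changes of Arntl, Dbp and Ciart were 1.11, -0.77 and -0.75 (edgeR, adjusted p = 0.0003, 0.000285 and 0.0033). The channel genes had 5 higher and 8 lower at 4 days, 1 and 2 at 8 days, and 1 and 5 at 11 days. Of all genes 9.46, 2.27 and 3.75% passed at these times. The part of the clock genes in the channel results was not tested.

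The remaining 65 channel genes passed against saline at no time. Called genes included, the 28 voltage-gated pore genes had a median log2 fold change of -0.42, -0.30 and -0.18 at 4, 8 and 11 days. Of these 28, 14 had an unadjusted p below 0.05 at 4 days, 10 of them lower. At 8 and 11 days 5 and 8 did, 3 and 5 of them lower. The modulatory subunits had medians of -0.54, -0.18 and -0.39. Accessory subunits had 0.36, -0.03 and 0.08, and inward rectifiers -0.16, 0.02 and -0.16. Two-pore channels had 0.07, -0.08 and -0.05, and HCN channels -0.01, 0.02 and -0.08. The medians of the channels opened by calcium or sodium were 0.12, 0.30 and 0.21, with 3 of 11 genes at an unadjusted p below 0.05 at each time, all higher. Over all genes 22.2, 13.0 and 17.2% had an unadjusted p below 0.05 at 4, 8 and 11 days. Exon sequence shared with another gene was annotated for 29 of the 82, and for 18 of them that gene had at least 10 counts, so their values may hold reads of both.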

How the data were processed

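RNA of 15 libraries was analysed. Per the submitters' processing notes and the study's methods, cutadapt 4.1 was used by the authors for trimming, HISAT2 2.2.1 with the build GRCm38.p6 for alignment and RSEM 1.3.3 for quantification. The authors deposited expected counts (estimated counts, not normalized), FPKM, effective lengths, and the percent of each gene taken by each transcript. The strand setting of the counting is not given in the sources used here. After rounding of the expected counts, genes with a sum of at least 10 were kept (26862), and libraries were scaled by TMM. Each pair of groups was compared in its own fit by the two-sided quasi-likelihood F-test in edgeR (version 4.0.16, R 4.3.3), with Benjamini-Hochberg adjustment over all genes and a threshold of 0.05. The standard error is the log2 fold change over the square root of F. Coordinates are those of GENCODE M21 and RefSeq on GRCm38.p6.

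The members and the lists of markers, partners and clock genes were chosen with earlier results of these data known. Named genes are those past the threshold against saline at any time, 20 known cardiac channel genes and the 5 with the highest FPKM, and genes called between 11 and 4 days were added after their values were seen. Values per heart are given for called genes that averaged 1 CPM or more in a group, and for further genes chosen after their values were seen. Alternatives were scaling by library size or DESeq2 size factors, no low-count filter or filterByExpr, effective lengths as offsets, robust dispersions, DESeq2 1.42.0, the replicate letter as a block, all groups in one fit, and each library left out. Tests were checked on simulated data. Libraries held 25404162 to 117777005 counts, and 51 of the 82 genes reached a median of 0.1 FPKM in saline hearts. RefSeq promoter windows matched 58 of 82 genes. Without a window were, among others, Hcn3, Kcna1, Kcnab3, Kcnb2, Kcnd1, Kcne1, Kcng1, Kcng2, Kcnh3, Kcnj11, Kcnj14, Kcnk3, Kcnk6, Kcnn2, Kcnq1, Kcnq3, Kcnt1, Kcnu1 and Kcnv2. Values of some genes are not reported here, though counts and medians include them.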

Additional observations from a re-analysis of the deposited data

Results flagged for a closer look

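In 5 of 78 groups of 4 hearts, 1 heart lay far from the other 3 for a named gene, and chance alone flags about 1 in 20 groups. Kcnc1 had 1.0 CPM in 4-day C, against 0.409 to 0.458 CPM in the other 4-day hearts. Kcng2 had 24.3 CPM in 4-day A, against 20.6 to 21.1 CPM in the others. Kcnk3 had 69.5 CPM in saline C, against 55.7 to 58.0 CPM in the other saline hearts. Kcnn4 had 0.437 CPM in 4-day C, against 0.294 to 0.308 CPM in the others, and 0.127 CPM in saline D, against 0.0882 to 0.0929 CPM in the others.

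Levels differed between 11-day and 4-day hearts for 10 genes by edgeR's direct test of these groups, which held no saline hearts. The log2 fold change of 11 over 4 days was 1.53 for Kcnv2, 1.17 for Kcna1, 0.46 for Kcnip2, 0.43 for Kcnj11 and 0.36 for Kcnd3, and it was -0.51 for Hcn2, -0.84 for Kcnk2, -1.11 for Kcnj14, -1.23 for Kcnab2 and -1.95 for Kcnn4. Their adjusted p ranged from 0.00137 for Kcnj11 to 0.0247 for Kcnj14.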

How the results depend on the processing

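Scaling by DESeq2 size factors changed none of the counts of channel genes past the threshold. At 4 days the count of 13 became 20 without a low-count filter and 20 with DESeq2 (2540 of all genes became 2729 and 3102), at 11 days the count of 6 became 2 with scaling by library size, and between any groups the count of 16 became 8 with it. Between 8 and 4 days the count of 0 became 3 without the filter and 2 with DESeq2. With each library left out in turn the counts ran from 7 to 23 at 4 days, 2 to 6 at 8 days, 1 to 9 at 11 days, 0 to 1 between 8 and 4 days, 7 to 16 between 11 and 4 days and 12 to 25 between any groups, and stayed at 0 between 11 and 8 days. Over all genes the same fits called 1387 to 2973 at 4 days, 259 to 912 at 8 days, 527 to 1422 at 11 days, 1437 to 3913 between 11 and 4 days and 2198 to 3890 between any groups. The deviations of same-letter libraries correlated at -0.29 to 0.25. Libraries of different letters were not set beside them, so these values cannot decide whether the letters pair the hearts. The fit with the replicate letter as a block gave 13, 4 and 7 at 4, 8 and 11 days. It gave 0, 12 and 0 for 8 against 4, 11 against 4 and 11 against 8 days, and 15 between any groups. With the block the adjusted p at 4 days was 0.0678 for Kcnk13, 0.0622 for Kcnj8 and 0.0759 for Kcnd1. Of the 1295 values of named genes under alternatives 1141 kept direction and side of the threshold, 84 lost and 42 gained it, and 28 turned sign. Those 28 were all of genes not past the threshold at the time in question, though some of these genes passed at another time. With scaling by library size the log2 fold change at 4 days was 0.14 for Hcn2 and 0.12 for Kcnk3, and at 11 days 0.0029 for Kcnk3. With effective lengths as offsets it was -0.0016 for Kcnj5 and 0.0325 for Kcnk3 at 4 days, 0.11 for Kcnk3 at 8 days, and 0.0585 for Kcnn4 at 11 days, and with filterByExpr 0.0034 for Kcnk3 at 8 days. With 1 library left out it ran from -0.23 to 0.071 for Hcn2, -0.0726 to 0.0622 for Kcnj5, -0.0351 to 0.30 for Kcnk2 and -0.11 to 0.0061 for Kcnk3 at 4 days. It ran from -0.12 to 0.0727 for Kcnk3 at 8 days. It ran from -0.28 to 0.0184 for Kcnd2, -0.60 to 0.0904 for Kcne1, -0.12 to 0.14 for Kcnj2, -0.0628 to 0.34 for Kcnk13, -0.17 to 0.0157 for Kcnk3 and -0.38 to 0.0346 for Kcnn4 at 11 days. The causes were not tested. The 3 or 4 hearts in a group and the low counts of many channel genes limit what could be detected.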
